A study of Mus musculus with 32 samples.

Results

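The cytosolic ribosomal protein genes were described across RNA sequencing of 2 cell types sorted from mouse supraspinatus, a rotator cuff muscle. They were taken by gene symbol: every gene named Rpl or Rps with a number and at most 1 further letter (a, l, x or y), together with Rplp0 to Rplp2 and Rpsa. This gave 83 of the 55487 genes in the tables, 51 of the large (60S) and 32 of the small (40S) ribosomal subunit. Genes named as pseudogenes were left out. Of the 83, 80 were annotated in the files as protein coding and 3 (Rps4l, Rpl6l and Rpl32l) as pseudogenes.

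The cells were satellite cells, the stem cells of muscle, and fibro-adipogenic progenitors (FAPs), mesenchymal cells of the muscle interstitium that can form fat and connective tissue. All mice were labelled as male wild-type C57BL/6J, 12 weeks old, and every muscle had a cardiotoxin injury, in which a snake venom peptide kills the fibres. BAT muscle had received interscapular brown adipose tissue from 3-week-old mice, and control muscle of the same mouse had the injury alone. Cells were collected on day 7 or on day 3 by a CD45-, CD31-, Sca1+ gate, split by alpha 7 integrin into positive satellite cells and negative FAPs. The 8 groups of 4 libraries were satellite cells of BAT muscle at day 7, of control muscle at day 7, of BAT muscle at day 3 and of control muscle at day 3, and the same 4 groups of FAPs. They came from 8 mice, 4 a day. An injured muscle with a sham graft and an uninjured muscle were not analysed here.

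A ribosome carries a single copy of nearly every ribosomal protein, so cells make these proteins in near-equal numbers, and their mRNAs are among the most abundant in a dividing cell. Most of these mRNAs begin with a C followed by a run of pyrimidines, the terminal oligopyrimidine (TOP) tract, through which mTOR signalling sets their translation. In muscle, satellite cells leave quiescence after injury, divide and then differentiate or return to quiescence, while FAPs expand early and then decline. A few members have a paralogue with a restricted pattern: Rpl3l replaces Rpl3 in ribosomes of heart and skeletal muscle fibres, and Rpl10l and Rpl39l are known from the male germ line.

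RefSeq (GRCm38.p6) listed a promoter for 61 of the 83 members. The sequences below run 5′ to 3′ on the gene's strand, 15 bases before and 15 from the annotated start, with the tract in capitals: a C followed by at least 7 further C or T bases. Rps6, the 40S protein phosphorylated by S6 kinases, with Rpl28, Rpl38 and Rps24, shows the tract in members that followed the common course described further on. Rpl4 and Rps13 are members that departed from it, and Rpl3l and Rpl39l are the paralogues with courses of their own. Named pseudogenes held 95.3% of the joint level of gene and pseudogenes for Rps6 and 91.8% for Rpl28, so the levels of Rps6 and Rpl28 are uncertain.
Rps6, chr4:86857353-86857382, minus strand: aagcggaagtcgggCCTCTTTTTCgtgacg
Rpl28, chr7:4792950-4792979, plus strand: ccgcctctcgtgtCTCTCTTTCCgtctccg
Rpl38, chr11:114668565-114668594, plus strand: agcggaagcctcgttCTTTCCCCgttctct
Rps24, chr14:24490663-24490692, plus strand: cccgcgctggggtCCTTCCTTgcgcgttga
Rpl4, chr9:64173372-64173401, plus strand: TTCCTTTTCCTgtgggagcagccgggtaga
Rps13, chr7:116334176-116334205, minus strand: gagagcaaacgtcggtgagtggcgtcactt
Rpl3l, chr17:24727811-24727840, plus strand: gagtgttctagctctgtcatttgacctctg
Rpl39l, chr16:10170213-10170242, plus strand: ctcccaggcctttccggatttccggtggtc
In Rps6, Rpl28, Rpl38 and Rps24 the tract overlaps or touches the annotated start. The tract of Rpl4 begins upstream of the bases shown and ends before the start. Rpl3l and Rpl39l have no tract in the bases shown, and Rps13 has none within 50 bases of its start.

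A tract of this kind, on the gene's strand within 50 bases of the start, was present in 50 of the 61 members (82.0%), against 28.7% of all 27025 listed promoters. CCGGAAG, the core bound by ETS factors, on either strand of the 300-base window was present in 24 of 61 members (39.3%), against 9.12% of all promoters. The GC box core CCGCCC was present in 35 of 61 (57.4%), against 35.9%. The 3 patterns were counted separately, also where they overlap, and describe letters in a window. The day 7 minus day 3 log2 difference in satellite cells of control muscle had a median of -1.05 over the 50 members with a tract that were tested, and of -0.92 over the 10 tested without one.

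Each library held 19.8 to 46.4 M counts (median 25.7 M). Levels are given as CPM, counts per 1 M of the library total, and a count of 0 allows at most 0.0647 to 0.152 CPM in a library, for counting error only. Pax7, which marks satellite cells, averaged 29.2 to 122 CPM over the satellite cell groups and at most 0.300 CPM over the FAP groups. Pdgfra, which marks FAPs, was at 251 to 436 CPM in FAPs and at 0.101 to 19.1 CPM in satellite cells. At day 3, 3 libraries held many macrophage transcripts: the summed level of 10 marker genes was 1657 CPM in satellite cells of BAT muscle replicate 4, 1469 CPM in satellite cells of control muscle replicate 3 and 4124 CPM in FAPs of BAT muscle replicate 1, against at most 154 CPM elsewhere. All 4 libraries of the day 7 mouse of replicate 3 held Xist (163 to 355 CPM, at most 0.161 CPM in the 28 others) and had no Ddx3y count, although labelled male. The shares and some counts of called members are also given without these libraries, while most differences of single genes are not. Bulk counts do not tell fewer cells of a type apart from less RNA per cell.

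Per kilobase of exon, and as a mean of the 32 libraries, Rpl32 had the highest level among the members (1858 CPM per kb). Rplp1 (1823) and Rplp0 (1658), both of the stalk on which elongation factors act, came next, and Rpl41 (1326) was also near the top, all in CPM per kb. The low end was set by Rps27 (6.30), Rps13 (5.31), Rpl17 (2.58) and Rpl3l (0.586 CPM per kb), while Rpl10l had no count in any of the 32 libraries. For Rpl17, Rps13 and Rps27, near-identical copies were listed far higher. The named pseudogenes of Rpl17 summed to 589 CPM against 3.42 CPM for Rpl17 itself, and those of Rps13 to 468 CPM against 14.3 CPM. The near-identical gene Rps27rt averaged 436 to 828 CPM over the 8 groups, against 6.57 CPM for Rps27 over all libraries. In 29 members, more than 50% of the member-plus-pseudogene level stood on the 317 named pseudogenes of the set, so the levels of these members are uncertain. For 40 members with a count, under 5% stood there, and results are also given over these. Only copies named as pseudogenes were counted, so the 40 still include Rps4l, Rpl6l and Rpl32l. They also include Rps27, and Rpl6 beside Rpl6l, so they are not a set free of copies.

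The members together took a larger share of satellite cell libraries than of FAP libraries, and a smaller share at day 7 than at day 3. In satellite cells at day 7, replicates 1 to 4 had 3.29, 3.09, 3.95 and 3.91% of their counts on the members in BAT muscle, against 3.62, 2.68, 4.07 and 3.27% in control muscle. At day 3 the shares in satellite cells were 5.72, 4.89, 5.22 and 4.13% in BAT muscle, against 5.27, 5.37, 4.94 and 4.56% in control muscle. Every day 3 library of satellite cells thus lay above every day 7 library, while BAT and control muscle overlapped on both days.

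FAPs showed the same order at a lower level. At day 7 the shares in FAPs were 1.87, 1.76, 2.39 and 2.06% in BAT muscle, against 2.24, 1.62, 2.42 and 2.20% in control muscle. At day 3 they were 2.74, 3.64, 3.38 and 3.44% in BAT muscle, against 2.92, 3.81, 3.56 and 3.25% in control muscle. Here too the days did not overlap and the muscles did. The lowest FAP share at day 3, in BAT muscle replicate 1, belonged to the library with the most macrophage transcripts.

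**Figure D1:**
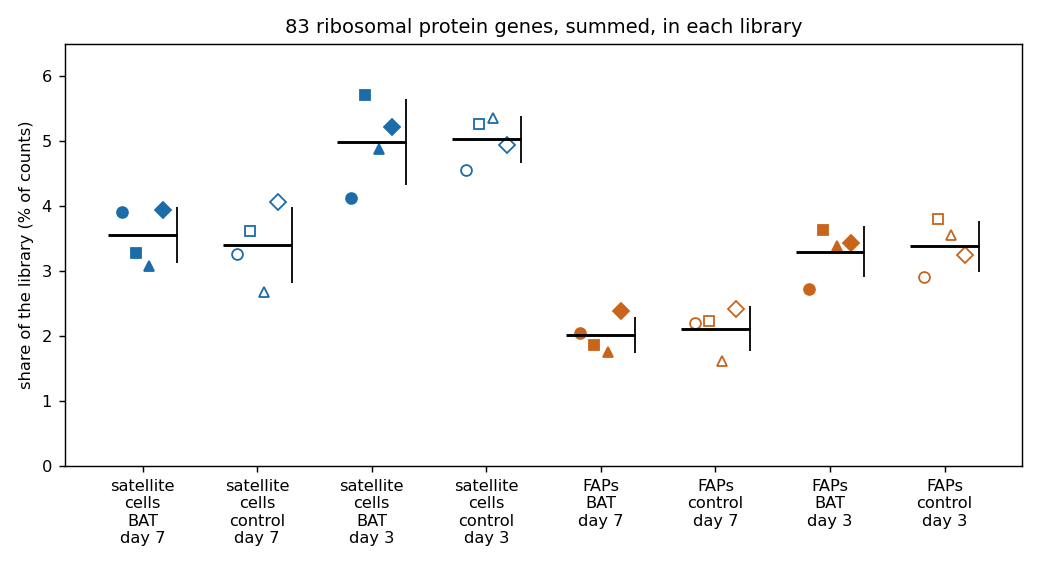
Share of each library's counts on the 83 ribosomal protein genes, in percent, by group (4 libraries each). Points are libraries with the marker shape giving the mouse, filled for BAT and open for control muscle, and bars are means with SD. Satellite cells lie above FAPs of the same day, and day 7 lies below day 3 in both cell types, while BAT and control muscle overlap.

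Within a mouse the share in satellite cells was 1.77 ± 0.103 times that in FAPs at day 7 in BAT muscle and 1.61 ± 0.0857 times in control muscle (SD, n = 4 mice each). At day 3 the ratio was 1.51 ± 0.0518 in BAT muscle and 1.49 ± 0.0776 in control muscle, and it was above 1 in 4 of 4 mice in each of the 4 sets. The lowest of the 16 ratios was 1.38 and the highest 1.90. Both subunits took part: at day 7 in control muscle, 60S members took 1.89 ± 0.316% of satellite cell counts against 1.19 ± 0.188% in FAPs, and 40S members took 1.52 ± 0.272% against 0.933 ± 0.159% (SD, n = 4).

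The day 7 mean share was 0.714 times the day 3 mean in satellite cells of BAT muscle and 0.678 times in those of control muscle. In FAPs it was 0.612 times in BAT muscle and 0.627 times in control muscle. As shares, the fall was thus no smaller in FAPs than in satellite cells. Within a day the lowest place, though not the order above it, was kept. The mouse of replicate 2 had the lowest share in all 4 groups at day 7, and the mouse coded 2b had it in all 4 groups at day 3. The libraries of mouse 2b from BAT muscle were among those rich in macrophage transcripts. Without the 3 libraries rich in macrophage transcripts the day 3 mean shares were 5.27% in satellite cells of BAT muscle, 5.06% in those of control muscle and 3.49% in FAPs of BAT muscle. Without the mouse with Xist, the day 7 means were 3.43% in satellite cells of BAT muscle, 3.19% in those of control muscle, 1.90% in FAPs of BAT muscle and 2.02% in FAPs of control muscle.

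The comparison of day 7 with day 3 asks how the members moved as regeneration went on. In satellite cells nearly the whole set fell. In control muscle 76 of 82 tested members were lower at day 7 and 2 were higher, where 59.4% of all genes tested were called, 29.8% lower and 29.7% higher (edgeR's quasi-likelihood test, Benjamini-Hochberg adjusted p under 0.05 over all genes tested, as throughout). The median log2 difference was -1.06 over the members and 0.03 over all genes. In BAT muscle 69 of 82 were lower and 1 was higher, where 52.9% of all genes were called, 24.4% lower and 28.5% higher, with medians of -0.90 over the members and 0.11 over all genes. Rpl3l met the minimum on counts through day 7 alone in both muscles, so its outcome over the days is read no further. Days came from different mice and stand in separate tables of unnormalised counts, so day, mouse and any difference in library preparation between the days cannot be told apart.

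Rps29, a 40S protein with a zinc-binding motif, fell furthest in satellite cells. It had 33.5, 34.6, 39.6 and 37.5 CPM at day 7 against 123, 89.2, 115 and 83.1 CPM at day 3 in BAT muscle, and 40.5, 29.4, 38.9 and 35.6 CPM at day 7 against 134, 117, 116 and 102 CPM at day 3 in control muscle. The days did not overlap in either muscle. Its log2 difference was -1.77 in BAT muscle and -2.07 ± 0.14 (SE) in control muscle.

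Rpl11, which with Rpl5 and 5S rRNA forms the particle that binds Mdm2, had 18.9, 12.4, 19.2 and 14.6 CPM at day 7 against 47.5, 49.9, 48.9 and 44.1 CPM at day 3 in satellite cells of control muscle, a log2 difference of -1.92 ± 0.16 (SE). Again no day 7 library reached a day 3 library. Rpl17 followed with -1.91 ± 0.24, at a level of at most 8.11 CPM that rests on few reads beside its pseudogenes. In BAT muscle Rpl11 (-1.70) and Rpl31 (-1.67), a 60S protein near the exit of the nascent chain, came after Rps29, with 89.3% of the joint level of Rpl31 on its pseudogenes and a difference of -1.14 with these added. The stalk protein Rplp0 fell less, by 0.89 on the log2 scale in control muscle, with 2654, 2275, 2994 and 2513 CPM at day 7 against 3984, 3585, 3839 and 3685 CPM at day 3.

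The 6 members of 82 that were not called lower in satellite cells of control muscle were Rpl3l, Rpl39l, Rpl4, Rpl9, Rps19 and Rps4l. Rpl3l and Rpl39l, the 2 called higher, met the minimum on counts through their day 7 libraries alone, so these calls are read no further and the values are given below. Rpl4, a 60S protein lining the exit tunnel, had 2532, 1691, 3252 and 2293 CPM at day 7 against 2399, 2456, 2471 and 2025 CPM at day 3, a log2 difference of -0.31. The day 7 libraries of Rpl4 spread on both sides of the day 3 ones. For Rpl9 (-0.44), 97.2% of the level stood on its pseudogenes. Rps19 (-0.36), which is mutated in Diamond-Blackfan anaemia, was at 606 to 1051 CPM at day 7 and 719 to 921 CPM at day 3. Pseudogenes held 51.5% of the joint level of Rps19, so its level is uncertain too.

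In FAPs the members fell as well, and no member was called higher. In BAT muscle 70 of 81 tested members were lower at day 7, where 22.9% of all genes were called, 12.6% lower and 10.3% higher. In control muscle 59 of 81 were lower, where 23% of all genes were called, 11.4% lower and 11.5% higher. Member medians were -0.75 in BAT muscle and -0.66 in control muscle, and all-gene medians were 0.04 and 0.09. Whether satellite cells or FAPs fell further depends on the scaling. With TMM the medians were lower in satellite cells, while with library totals they were -0.62 in satellite cells and -0.77 in FAPs of BAT muscle, and -0.70 in satellite cells and -0.71 in FAPs of control muscle. The count in control muscle was 30 without day 3 replicate 2 and 32 without day 3 replicate 3, and that in BAT muscle was 37 without day 7 replicate 1. It was 43 to 47 without BAT day 7 replicate 4 or any of BAT day 3 replicates 2, 3 and 4.

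Rpl36a, Rps27a and Rps29 led the fall in FAPs of control muscle. Of the joint level with named pseudogenes, 91.2% stood on the copies of Rpl36a and 69.4% on those of Rps27a, and with these added the differences were -0.90 and -0.84, both still called. Rpl36a, a 60S protein at the tRNA exit site, had 6.81, 4.79, 8.16 and 7.20 CPM at day 7 against 13.2, 17.1, 15.4 and 15.99 CPM at day 3, a log2 difference of -1.15 ± 0.19 (SE). Rps27a, made as a fusion with ubiquitin, had 32.3, 21.1, 37.2 and 29.2 CPM at day 7 against 59.6, 77.7, 70.2 and 64.6 CPM at day 3, and differed by -1.14 ± 0.18. The days did not overlap for either gene. In FAPs of BAT muscle the largest differences were those of Rpl36a (-1.45), Rpl11 (-1.38) and Rps27a (-1.22). Farthest from the set's course in control muscle were Rpl9 (-0.13 ± 0.25), Rps13 (-0.16 ± 0.25) and Rps27 (-0.17 ± 0.26), none of which passed the test.

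**Figure D2:**
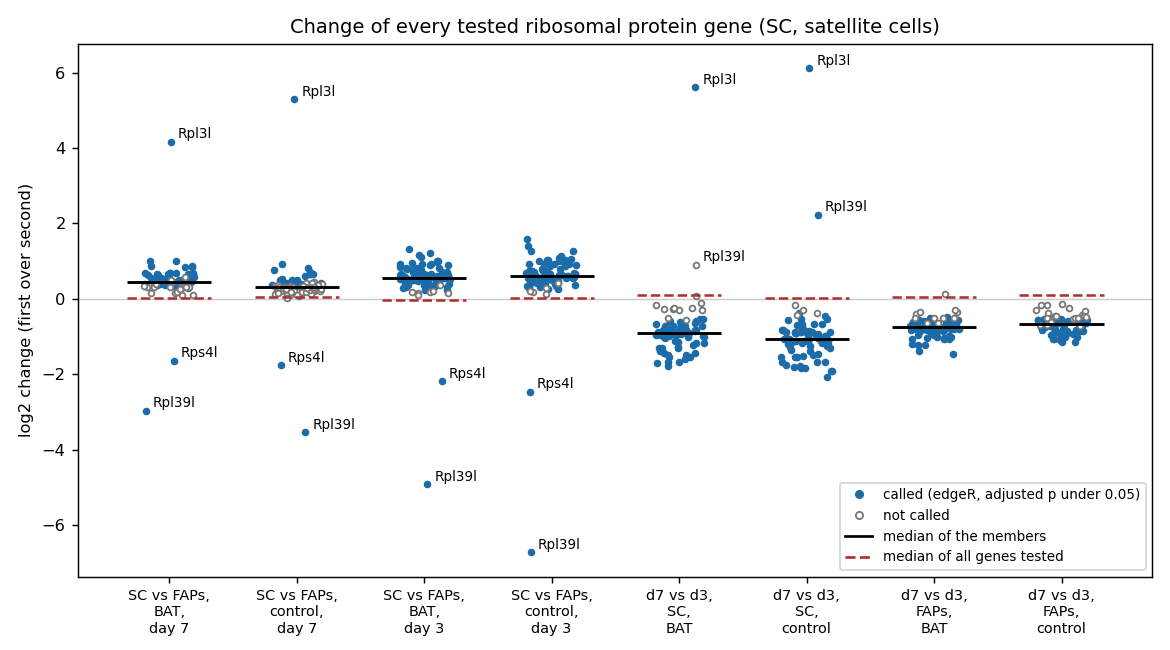
Log2 differences of each tested ribosomal protein gene in the cell type and day comparisons, 1 point a gene, from edgeR: filled where called and open where not, with the median of the members (solid line) and of all genes (dashed line). Most day 7 minus day 3 points lie below 0 and most satellite cell minus FAP points above 0, and Rpl3l, Rpl39l and Rps4l lie apart from the bulk. The Rpl3l points, and those of Rpl39l at day 3 and over the days in satellite cells, rest on a group of few counts.

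The 2 cell types ordered the members alike. Across the 79 members other than Rpl3l, Rpl39l and Rps4l, the day difference in satellite cells and that in FAPs had a Pearson r of 0.79 (Spearman rho 0.75) in BAT muscle and 0.77 (0.72) in control muscle. This r runs across genes, which are not independent and share reads with pseudogenes, and the libraries of both cell types came from the same mice. Between BAT and control muscle the day differences had an r of 0.97 in satellite cells and 0.91 in FAPs.

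Setting satellite cells against FAPs asks which cell type held more of these mRNAs. At day 3 nearly all members were higher in satellite cells: 72 of 81 tested in BAT muscle and 74 of 81 in control muscle, with 2 lower in each. The 2 lower were Rps4l and Rpl39l. Rpl39l met the minimum on counts at day 3 through FAPs alone, so its call is read no further. Of all genes tested, 66.5% were called in BAT muscle and 31.1% were called higher, and in control muscle 71.7% were called and 35.8% were called higher. The median log2 difference was 0.55 over the members in BAT muscle and 0.60 in control muscle, against -0.04 and 0.03 over all genes. Without the libraries rich in macrophage transcripts and their partners from the same mouse, 73 were higher in BAT muscle and 72 in control muscle.

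Rpl27, a 60S protein, had the largest difference in favour of satellite cells at day 3. In control muscle it was at 122, 115, 127 and 114 CPM in satellite cells against 31.8, 44.9, 34.5 and 37.4 CPM in FAPs, a log2 difference of 1.58 ± 0.11 (SE), and in BAT muscle the difference was 1.32. Every satellite cell library lay above every FAP library. Rpl5, the partner of Rpl11, was at 88.3, 92.3, 85.2 and 77.2 CPM in satellite cells against 24.5, 34.8, 30.3 and 31.5 CPM in FAPs of control muscle, a difference of 1.39 ± 0.10, and Rpl36a differed by 1.28 ± 0.10. Pseudogenes held 82.1% of the joint level of Rpl27 and 91.2% of that of Rpl36a. With the pseudogenes added, the differences in control muscle were 0.96 for Rpl27 and 0.51 for Rpl36a, both still called.

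At day 7 fewer members passed. In BAT muscle 57 of 82 were higher and 2 lower in satellite cells, where 49.9% of all genes were called and 24.5% were called higher. In control muscle 29 of 82 were higher and 2 lower, where 45.1% were called and 22.5% were called higher, so that the share of members called there was below that of all genes while the higher calls were above it. Over the 40 members with under 5% on named pseudogenes this did not hold, since 8 of 40 were called higher there, below the 22.5% of all genes. The 82 and the 40 tested include Rpl3l. It met the minimum on counts through satellite cells alone in both muscles, so its outcome at day 7 is read no further. Member medians were 0.46 in BAT muscle and 0.32 in control muscle, against 0.03 and 0.05 over all genes. The median within each mouse was above 0 in 4 of 4 mice, from 0.38 to 0.61 in BAT muscle and from 0.27 to 0.37 in control muscle. The count of called members in control muscle, higher and lower together, was 31 with all mice and 11 to 20 without any 1 of them, and 16 without the mouse with Xist. In BAT muscle it was 59 with all mice, 37 without the mouse of replicate 1 and 39 without that of replicate 4.

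The calls at day 7 moved with the scaling. Scaling to library totals in place of edgeR's TMM factors put 80 members higher in BAT muscle and 79 in control muscle at day 7. Under it the median of all genes lay at 0.47 in both, and the members' median lay 0.43 above that in BAT muscle and 0.27 above it in control muscle. With TMM the members' median lay 0.43 above the all-gene median in BAT muscle and 0.27 above it in control muscle. The shares given above are per library total and the log2 differences use TMM, so shares and fitted differences at day 7 do not match in size.

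Rpl10a, a 60S protein of the L1 stalk, was among those that did pass at day 7 in control muscle, with 81.3, 56.8, 76.5 and 70.0 CPM in satellite cells against 26.0, 21.5, 32.4 and 34.1 CPM in FAPs and a log2 difference of 0.91 ± 0.13 (SE). Rpl5 followed at 0.82 ± 0.15. The libraries of the 2 cell types did not overlap for Rpl10a. Its pseudogenes held 92.6% of the joint level, and with them added the difference was 0.47 and still called. Rplp1, in contrast, was at 876, 632, 918 and 757 CPM in satellite cells and 645, 412, 700 and 631 CPM in FAPs, with a fitted difference of 0.01 ± 0.12 (adjusted p = 0.96). In BAT muscle Rpl36a (1.01, or 0.56 with its pseudogenes added) and Rpl5 (1.01, or 0.98) led, Rpl3l aside.

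Whether the day course itself differed between the cell types was tested as an interaction. In BAT muscle 9 of 82 members had a more negative day difference in satellite cells than in FAPs and 1, Rps4l, a less negative one, where 17.9% of all genes were called and 7.28% were called in the negative direction. In control muscle 25 had a more negative one, where 23.8% were called and 8.39% were called in that direction. The 1 call in the positive direction there was Rpl39l (3.32 ± 0.84), whose satellite cell libraries at day 3 held 1 to 41 counts. At day 3 Rpl39l met the minimum on counts through FAPs alone, so this call is read no further. Over the 40 members with under 5% on named pseudogenes, 2 of 40 in BAT muscle and 8 of 40 in control muscle were called in the negative direction. The first of these was below the share of all genes. Among negative calls the largest belonged to Rpl27, by -0.89 ± 0.13 in BAT muscle and -0.96 ± 0.14 in control muscle (log2, SE), with adjusted p = 0.0025 and 0.0013. In control muscle Rps29 (-0.84 ± 0.13), Rpl11 (-0.79 ± 0.14), Rpl24 (-0.77 ± 0.17) and the p53-induced Rps27l (-0.73 ± 0.15) came next. Named pseudogenes held 82.1% of the joint level of Rpl27.

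These counts rest on the scaling too. With library totals 1 member was called in the negative and 11 in the positive direction in BAT muscle, and 5 in the negative and 6 in the positive direction in control muscle, while the all-gene median of the same difference moved to 0.37 in BAT muscle and 0.41 in control muscle. Relative to that median the members lay at -0.21 in BAT muscle and -0.37 in control muscle under either scaling. The count in BAT muscle was 4 without the libraries rich in macrophage transcripts and 6 without the mouse with Xist, and that in control muscle was 16 without the libraries rich in macrophage transcripts.

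Most members moved together over the 8 groups, and a few stood apart. The mean log2 level in each group correlated with the median profile of the set above 0.9 for 72 of the 82 members with a count, a profile that spanned 1.51 on the log2 scale. Below 0.8 were Rpl39l (-0.75), Rps4l (-0.53), Rpl3l (-0.04) and Rps13 (0.71), followed by Rpl4 at 0.82 and Rpl9 at 0.84. These are descriptions over 8 group means that share mice.

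Rpl3l, the paralogue of Rpl3 in muscle fibres, was detected above a few counts in satellite cells of day 7 alone. It had 1.79, 2.87, 0.676 and 4.49 CPM in BAT muscle against 3.95, 7.19, 2.485 and 6.13 CPM in control muscle, from 233 counts over the BAT libraries and 545 over the control ones. The other 24 libraries held at most 5 counts each (0.227 CPM), and 11 of them held none. In every one of the 4 mice Rpl3l was lower in BAT than in control muscle, while the groups overlapped.

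In counts, replicates 1 to 4 of the day 7 satellite cells held 41, 72, 17 and 103 in BAT muscle and 116, 223, 62 and 144 in control muscle. The day 3 satellite cells held 2, 2, 0 and 0 in BAT muscle and 0, 1, 1 and 4 in control muscle, and the day 7 FAPs held 2, 0, 5 and 1 in BAT muscle and 4, 0, 1 and 5 in control muscle. Rpl3l met the minimum on counts through the day 7 satellite cells alone, which fixes the outcome against those other groups, so no fold or test is given for them. BAT minus control in satellite cells at day 7 was -1.13 ± 0.27 (log2, SE) and did not pass (adjusted p = 0.54). Without the minimum on low counts the same difference was -1.12 with an adjusted p of 0.0063. The summed level of 12 myofibre markers, Acta1, Ckm and Myh4 among them, moved with Rpl3l: it was 1661, 3696, 1423 and 3965 CPM in BAT muscle against 2954, 5739, 2610 and 6057 CPM in control muscle, and its part in the result was not tested. Those markers summed to 295 to 935 CPM in satellite cells at day 3 and to at most 184 CPM in FAPs.

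Rpl3 itself followed the common course, with 330, 285, 384 and 374 CPM at day 7 against 485, 451, 545 and 409 CPM at day 3 in satellite cells of BAT muscle. It was 353, 240, 401 and 319 CPM at day 7 against 447, 447, 504 and 469 CPM at day 3 in control muscle, and fell by 0.87 on the log2 scale. Its pseudogene Rpl3-ps1 was listed at a mean of 2758 CPM, so 89.9% of the level of gene and pseudogenes stood on the copies. The genes whose log2 level followed Rpl3l most closely over the 32 libraries were Asb12 (r = 0.98), A930016O22Rik (0.97), 2310002L09Rik (0.97), Fsd2 (0.97) and Ckmt2 (0.97), the last of which is the mitochondrial creatine kinase of muscle.

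Rpl39l, the paralogue of Rpl39 known from the male germ line, ran the other way between cell types. In control muscle at day 7 it was at 1.74, 4.90, 2.61 and 1.87 CPM in satellite cells against 20.6, 16.6, 34.7 and 21.3 CPM in FAPs, a log2 difference of -3.54 ± 0.35 (SE). At day 3 it was at 0.0379, 0.173, 1.62 and 0.137 CPM in satellite cells against 28.0, 46.2, 39.7 and 42.3 CPM in FAPs. No satellite cell library reached a FAP library on either day. In BAT muscle the log2 difference at day 7 was -2.97 ± 0.27. At day 3 Rpl39l met the minimum on counts through FAPs alone, so no fold or test is given for that day.

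Within satellite cells of control muscle, replicates 1 to 4 held 51, 152, 65 and 44 counts of Rpl39l at day 7 and 1, 8, 41 and 3 counts at day 3. Here it met the minimum through the day 7 libraries alone, and replicate 3 held most of the day 3 counts, so no test is given. Within FAPs of BAT muscle Rpl39l was lower at day 7 (log2 difference -0.82). The summed level of 8 FAP markers in satellite cells moved with it: 289 to 553 CPM at day 7, and at day 3 268 CPM in control replicate 3, 379 CPM in BAT replicate 4 and 291 CPM in BAT replicate 2, against 38.8 to 65.2 CPM in the other day 3 libraries. Those 3 libraries also had the highest Rpl39l at day 3 (1.62, 2.69 and 3.37 CPM). The part of FAP transcripts in the level of Rpl39l in satellite cells was not tested. FAP libraries held 5299 to 18500 CPM of these markers. Rpl39 itself was higher in satellite cells than in FAPs, by 0.51 at day 7 in BAT muscle and 0.39 in control muscle on the log2 scale.

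Rps4l, which the files annotate as a transcribed processed pseudogene, was the other member higher in FAPs. In control muscle it was at 36.9, 67.9, 28.5 and 34.1 CPM in satellite cells against 98.0, 101, 94.7 and 108 CPM in FAPs at day 7. At day 3 it was at 31.7, 36.3, 40.3 and 39.8 CPM in satellite cells against 192, 193, 202 and 170 CPM in FAPs. The cell types did not overlap on either day, and the log2 differences were -1.77 ± 0.19 at day 7 and -2.48 ± 0.12 at day 3 (SE). Rps4l (chr6:148354656-148355598, plus strand, GRCm38) overlaps Tmtc1 on the opposite strand, so that without strand its reads cannot be told apart from those of Tmtc1. Its FAP level fell by 0.85 on the log2 scale at day 7 in control muscle, while in satellite cells the difference was -0.15 ± 0.27 (adjusted p = 0.64). Rps4x, the protein-coding 40S member, was higher in satellite cells at day 3 by 0.29 in control muscle and 0.23 in BAT muscle.

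Rps27l and Rps27 differed in how they could be read. Rps27l, a p53 target, was at 129, 96.3, 156 and 113 CPM at day 7 against 345, 404, 291 and 274 CPM at day 3 in satellite cells of control muscle, and fell by 1.78 on the log2 scale, with no overlap of the days. Rps27, at 2.79 to 10.6 CPM, changed by -0.53 in the same cells and passed the test (adjusted p = 0.029), beside the far higher level listed for the near-identical Rps27rt. Rpl10, a 60S protein that joins late, was higher in satellite cells than in FAPs at day 7 by 0.65 in control muscle, and by -0.03 once its 6 pseudogenes, which held 97.4% of the joint level, were added to it. Rpl10l had no count.

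**Figure D3:**
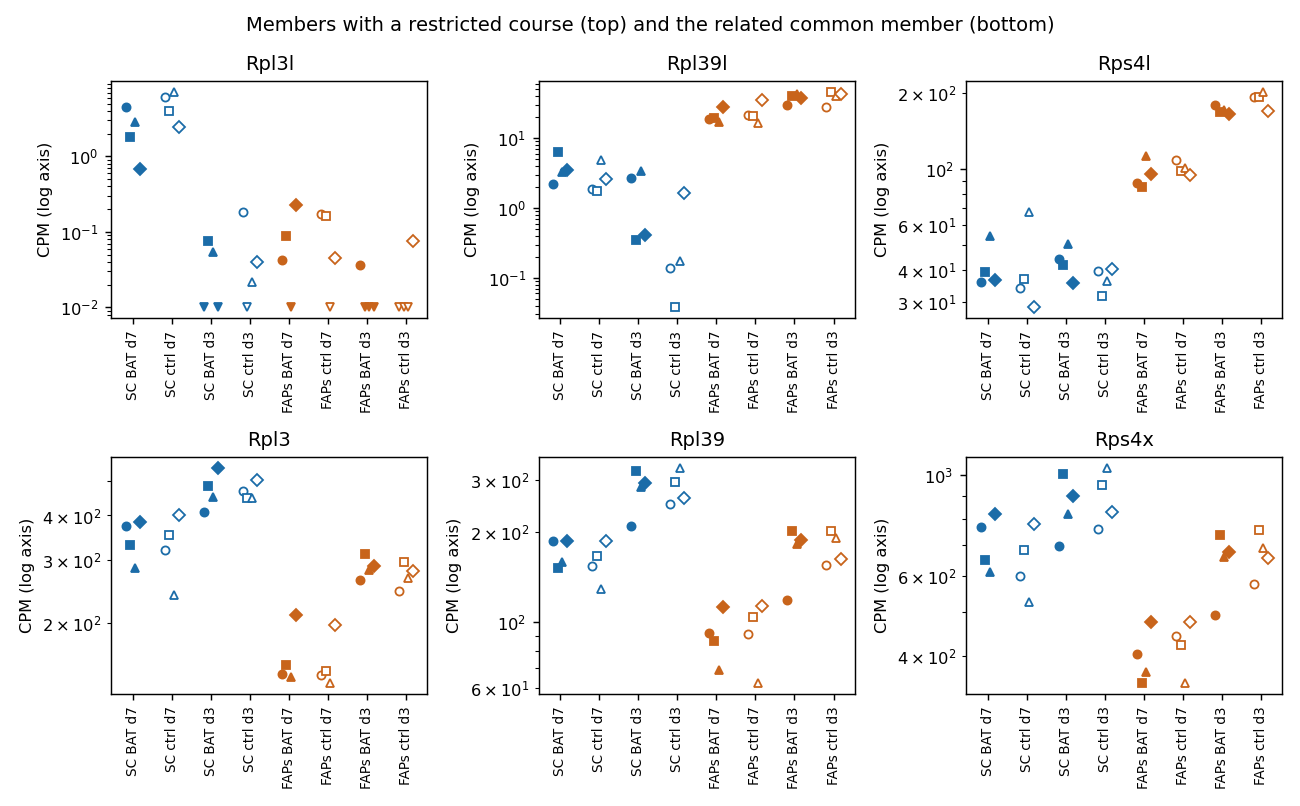
CPM on a log axis of Rpl3l, Rpl39l and Rps4l (top) and of Rpl3, Rpl39 and Rps4x (bottom) in the 32 libraries, filled for BAT and open for control muscle, with triangles at the axis foot for libraries without a count. Rpl3l stands out in satellite cells of day 7, Rpl39l and Rps4l are higher in FAPs, and the lower 3 follow the common course.

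Rps13, the remaining member below 0.8, was uncertain for the same reason as Rpl10. It was at 26.5, 12.5, 26.7 and 23.9 CPM at day 7 against 18.1, 16.3, 22.3 and 14.4 CPM at day 3 in satellite cells of BAT muscle, with overlapping days and a log2 difference of 0.06. Its 7 pseudogenes held 97.0% of the joint level.

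Over the 40 members with under 5% on named pseudogenes, the day differences leaned as in the whole set. So did the day 3 difference between cell types, while the day 7 difference in control muscle did not exceed the share of all genes. The 40 include the members annotated as pseudogenes, and Rps27 with its near-identical Rps27rt. They also include Rpl3l, whose outcome between cell types at day 7 is read no further. In control muscle 36 of 40 were lower at day 7 in satellite cells and 27 of 39 tested were lower in FAPs, with medians of -1.02 and -0.63. Between cell types in control muscle, satellite cells were higher for 8 of 40 at day 7 and for 32 of 39 at day 3, with medians of 0.26 and 0.55. In BAT muscle the same counts were 32 lower at day 7 in satellite cells and 35 in FAPs, and satellite cells exceeded FAPs for 25 at day 7 and 31 at day 3.

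BAT against control muscle within a mouse is the comparison of the transplant itself. No member was called in any of the 4 comparisons. In satellite cells at day 7, 0.0178% of all genes tested were called, and at day 3 none (0%). In FAPs none (0%) were called at day 7 and 0.0188% at day 3. At an unadjusted p under 0.05, edgeR had 1 member, Rpl3l, in satellite cells at day 7 and 0 in the other 3 comparisons. At an adjusted p under 0.05, DESeq2 and limma voom called 0 members in each. Over all genes, 1261 of 16868 in satellite cells at day 7, 472 of 15631 in satellite cells at day 3, 783 of 16021 in FAPs at day 7 and 730 of 15948 in FAPs at day 3 had an unadjusted p under 0.05.

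The fitted differences were small throughout. The member median was 0.10 in satellite cells at day 7, where 74 of 82 members lay above 0, and -0.03 at day 3. In FAPs it was -0.07 at day 7, where 69 of 81 lay below 0, and -0.01 at day 3. The 4 mice did not move alike: the median over members within single mice was -0.14, 0.23, 0.06 and 0.23 in satellite cells at day 7 for replicates 1 to 4, a mean of 0.10 ± 0.18 (SD, n = 4). The other means over 4 mice were -0.03 ± 0.19 in satellite cells at day 3, -0.07 ± 0.16 in FAPs at day 7 and -0.02 ± 0.11 in FAPs at day 3, all smaller than their spread between mice.

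As a share of the library, BAT minus control was 0.150 ± 0.454 percentage points in satellite cells at day 7 (higher in 2 of 4 mice) and -0.0446 ± 0.477 at day 3 (2 of 4). In FAPs it was -0.101 ± 0.214 at day 7 and -0.0851 ± 0.186 at day 3 (SD, higher in 1 of 4 mice each). Besides Rpl3l, the member with the smallest p in satellite cells at day 7 was Rps13 (log2 0.35 ± 0.16, adjusted p = 0.67), and in satellite cells at day 3 it was Rps2, a 40S protein at the mRNA entry (-0.15 ± 0.06). In FAPs the smallest p belonged to Rpl37 at day 7 (-0.20) and Rpl10a at day 3 (-0.14).

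**Figure D4:**
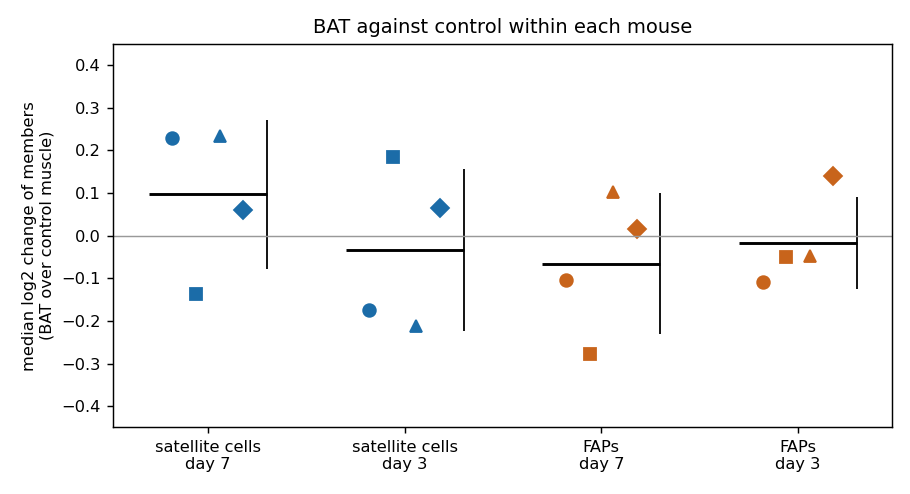
Median log2 BAT minus control difference of the members within each mouse, by cell type and day (4 mice each), with the mean and SD. The values lie on both sides of 0 in all 4 sets.

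Whether the BAT minus control difference was itself unequal between days or cell types was tested as well, and no member was called by edgeR in any of the 4 tests. Of all genes, 0.0229% were called for satellite cells minus FAPs at day 3 and 0% in the other 3. The member medians were 0.12 for day 7 minus day 3 in satellite cells, -0.04 for the same in FAPs, 0.14 for satellite cells minus FAPs at day 7 and -0.05 for the same at day 3. At an unadjusted p under 0.05 there was 1 member for day 7 minus day 3 in satellite cells, 1 for satellite cells minus FAPs at day 7 and 0 in the other 2 tests.

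The counts of related lists that follow are those of control muscle and are read against all genes tested. Of these, 22.5% were higher and 22.6% lower in satellite cells than in FAPs at day 7, and 35.8% higher and 35.9% lower at day 3. At day 7 against day 3, 29.7% were higher and 29.8% lower in satellite cells, and 11.5% higher and 11.4% lower in FAPs.

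The ribosomal proteins that the symbol rule leaves out, Fau, Rack1 and Rps3a1 among them, were mostly lower at day 7. In control muscle 10 of 11 were lower at day 7 in satellite cells (median log2 -0.97) and 7 of 11 in FAPs (-0.67). Fau, made as a fusion of a ubiquitin-like protein with the 40S protein eS30, had a log2 difference of -1.99 in satellite cells and -0.92 in FAPs, and averaged 59.0 ± 8.63 CPM at day 7 against 182 ± 13.1 CPM at day 3 in satellite cells of control muscle (SD, n = 4). Satellite cells exceeded FAPs for 4 of 11 at day 7 (median 0.32) and for 8 of 11 at day 3 (0.50), Fau with 1.29 ± 0.10 at day 3.

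Ribosome biogenesis factors were higher in satellite cells too, 32 of 60 at day 7 (median 0.55) and 56 of 60 at day 3 (1.12) in control muscle, with none lower. The rRNA pseudouridine synthase Dkc1 differed by 1.33 at day 7 and 1.84 ± 0.07 at day 3, and Mrto4, which holds the place of Rplp0 in pre-ribosomes, by 2.09 ± 0.09 at day 3. At day 7 against day 3, 54 of 60 were lower and 1 was higher in satellite cells (median -1.06), against 15 lower and 1 higher in FAPs (-0.34). Nhp2, another protein of the pseudouridylation complex, differed by -2.31 ± 0.17 in satellite cells. Of 20 genes of RNA polymerase I transcription, satellite cells exceeded FAPs for 12 at day 7 and 17 at day 3, Polr1a with 1.00 at day 7, and at day 7 against day 3 15 were lower in satellite cells and 4 in FAPs. Against the shares of all genes given above, both lists had more higher calls between cell types and more lower calls over the days in satellite cells, and the 4 of 20 in FAPs stood beside 11.4%.

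Among 33 initiation factors, 9 were higher in satellite cells than in FAPs at day 7 and 29 at day 3, with 1 lower at day 3. At day 7 against day 3, 28 were lower and 1 higher in satellite cells, and 6 were lower and 1 higher in FAPs. The 9 of 33 at day 7 stood near the 22.5% of all genes, and the 6 of 33 in FAPs stood beside 11.4%. Elongation factors were less uniform, with 3 higher and 1 lower of 10 in satellite cells at day 7, and 5 lower and 2 higher of 10 over the days in the same cells, where 22.5% of all genes were higher and 29.8% lower. Of 20 other mRNAs of the TOP class, such as Npm1 and Hnrnpa1, 6 were higher and 1 lower in satellite cells at day 7, 15 higher and 1 lower at day 3, and over the days 18 were lower in satellite cells and 8 in FAPs. For these too the 6 of 20 at day 7 stood near the 22.5% of all genes. Npm1, a nucleolar chaperone, averaged 768 ± 210 CPM at day 7 against 2772 ± 224 CPM at day 3 in satellite cells of control muscle, a log2 difference of -2.22 ± 0.19.

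Regulators of ribosome production were called both ways, at shares near those of all genes. Of 25, 7 were higher and 4 lower in satellite cells at day 7, where 22.5% and 22.6% of all genes were. At day 3, 11 were higher and 10 lower, where 35.8% and 35.9% of all genes were. Over the days in satellite cells 9 were higher and 5 lower, where 29.7% and 29.8% of all genes were. Mycn, a Myc family activator of ribosome genes, was at 23.4 ± 7.03 CPM at day 7 and 3.30 ± 0.419 CPM at day 3 in satellite cells of control muscle, a log2 difference of 2.47 ± 0.24. Myc itself was lower in satellite cells than in FAPs at day 7 (-1.14 ± 0.15), with 248 ± 97.1 CPM against 398 ± 98.6 CPM. Mxd4, a Max partner that opposes Myc, was at 90.1 ± 15.5 CPM at day 7 and 13.7 ± 2.76 CPM at day 3 in satellite cells (2.34 ± 0.20). No gene of these lists was called between BAT and control muscle, where at most 0.0188% of all genes were.

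**Figure D5:**
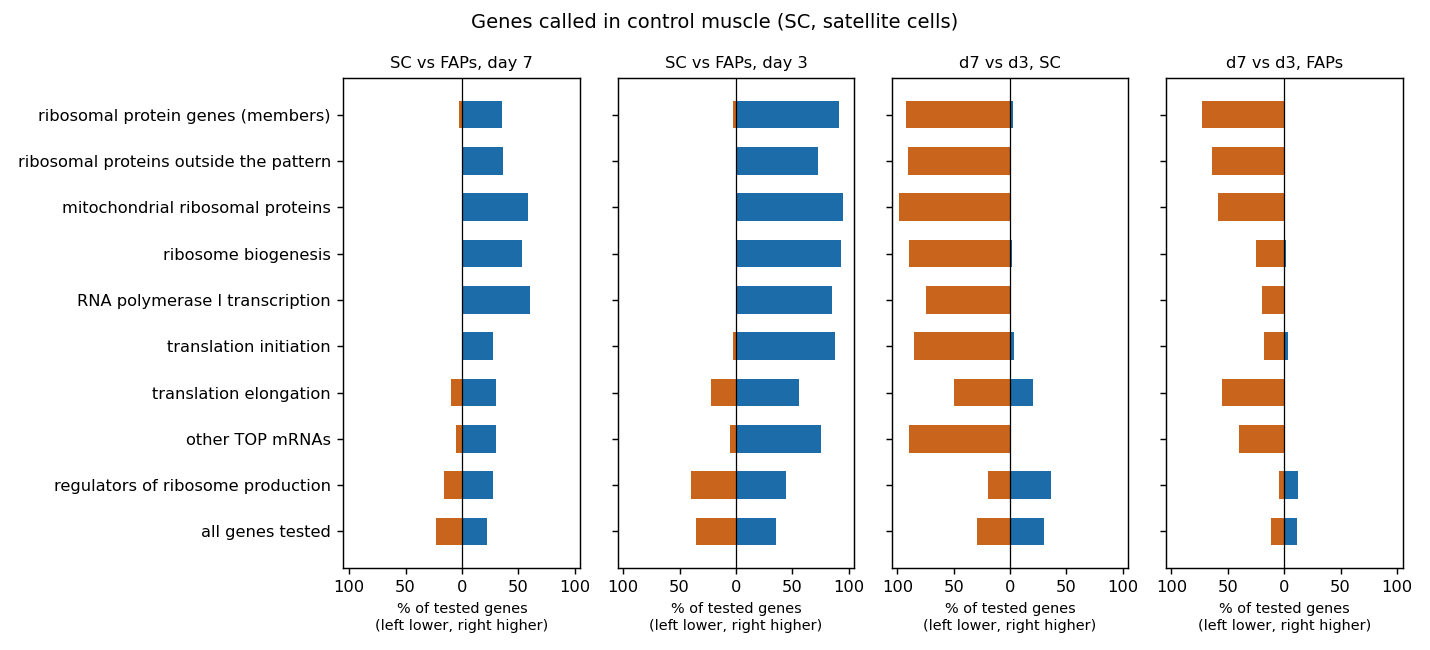
Percent of the tested genes of each list called higher or lower in control muscle, for satellite cells against FAPs and for day 7 against day 3, with all genes tested in the bottom row. The members, biogenesis and polymerase I lists pass the bottom row for higher in satellite cells and for lower at day 7 in satellite cells, the initiation list stays near it for satellite cells against FAPs at day 7, and the regulators go both ways as all genes do.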

How the data were processed

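Expected counts per gene were deposited by the authors as a table for each day, without normalisation. DRAGEN and mm10 are named in the submitters' processing notes; per the labels, libraries were made from sorted cells with a low-input SMARTer kit. Not given in the sources used here were software versions, the annotation, how multiply matching reads were counted, and whether strand was used. Of 55774 entries in each table, 287 repeats were dropped. Expected counts were rounded before fitting (71.8% of values above 0 were already whole, with no tolerance).

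CPM is counts per 1 M of a library's total. Tests used edgeR 4.0.16 (quasi-likelihood F test, TMM, filterByExpr with a minimum count of 10, Benjamini-Hochberg over all genes tested) in R 4.3.3, with the mouse as a block within a day. DESeq2 1.42.0 and limma 3.58.1 (voom) were alternatives. The scripts were checked on simulated counts. The pairing comes from the mouse codes in the labels; at day 3 the libraries without a code were taken as 1 mouse, which is an inference. Of 32 pairs of libraries from 1 mouse, 28 had deviations that correlated above 0.1 (range -0.44 to 0.80). Separate muscles of 4 mice a day are the replicates. The unnumbered library of a group is called replicate 4. Members and lists were chosen with earlier results of these data known. Named genes were the members with a diverged paralogue, the 3 called members with the largest change in each direction of a comparison, the members farthest from the set's median in the control comparisons, and those with the smallest p between BAT and control; some genes that this rule names are not reported here. Rps6, Rpl28, Rpl38, Rps24, Rps19, Rpl4, Rpl24 and Rpl32, and the genes named from the related lists, stand outside that rule and were chosen after their values were seen. Settings that leave out the libraries rich in macrophage transcripts or the mouse with Xist were added after seeing the data.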

Additional observations from a re-analysis of the deposited data

Results flagged for a closer look

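In 200 groups of 4 libraries screened over 24 named members and the shares, 12 had a library whose gap to the nearest of the others exceeded Dixon's 95% limit, where chance gives about 1 in 20. Libraries of replicate 2 at day 7 accounted for 7 of them, each the lowest of its group. In FAPs of BAT muscle replicate 2 had 47.5 CPM of Rps27l (others 78.0 to 82.6). In FAPs of control muscle it had 53.1 CPM of Rps27l (others 83.2 to 85.8), 6.06 CPM of Rpl11 (9.53 to 10.1) and 148 CPM of Rplp2 (194 to 199). In satellite cells it had 23.6 CPM of Rpl9 in BAT muscle (42.3 to 44.3), and in control muscle 1.64 CPM of Rpl17 (2.57 to 2.73) and 5.39 CPM of Rps27 (7.90 to 8.39).

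The mouse of replicate 3 at day 7, the one with Xist, stood high in FAPs with 210.5 CPM of Rpl3 in BAT muscle (others 141 to 153) and 755 CPM of Rpsa, the laminin receptor of the 40S subunit, in control muscle (548 to 560). Rpl39l stood at 1.62 CPM in satellite cells of control muscle replicate 3 at day 3 (others 0.0379 to 0.173). That library held 1469 CPM of macrophage markers and also the highest FAP marker sum of its group (268 CPM). Rpl3l had 0.0364 CPM in FAPs of BAT muscle replicate 1 and 0.0758 CPM in FAPs of control muscle replicate 4 at day 3, from 1 and 2 counts, with none in the other libraries of either group.

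The day course differed between satellite cells and FAPs, by a test of the difference itself, for 4 named members in BAT muscle and 9 in control muscle (log2, satellite cells minus FAPs). In BAT muscle these were Rpl27 (-0.89), Rpl31 (-0.69), Rps29 (-0.58) and Rps4l (0.46). In control muscle they were Rpl27 (-0.96), Rps29 (-0.84), Rpl11 (-0.79), Rps27l (-0.73), Rpl31 (-0.63), Rpl36a (-0.55), Rpl5 (-0.55), Rps27a (-0.48) and Rpl39l (3.32). The call of Rpl39l is read no further, since it had 1 to 41 counts in the satellite cell libraries of day 3. The counts of such members depend on the scaling, as given for the day course above. Named pseudogenes held 82.1% of the joint level of Rpl27, 89.3% of that of Rpl31, 91.2% of that of Rpl36a and 69.4% of that of Rps27a. With named pseudogenes added fewer members were called, as given below.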

How the results depend on the processing

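The counts of called members at day 3 between cell types and over the days in satellite cells stayed within 1.5 times the reported count under every setting run, each left-out library included. The difference between cell types at day 7 did not: of 31 called in control muscle, library totals gave 81, no replicate block 13 and leaving out the mouse with Xist 16, and without single mice it was 11 to 20. In BAT muscle (59 called) no replicate block gave 37, and without single mice it was 37 to 68, the lowest without replicate 1 and 39 without replicate 4. Over the days in FAPs, leaving out single libraries gave 37 to 77 in BAT muscle (70 called) and 30 to 66 in control muscle (59 called). The day course difference (10 called in BAT muscle, 26 in control muscle) was the least steady. It gave 5 and 17 with named pseudogenes added, 1 and 9 without the replicate block, and 4 and 16 without libraries rich in macrophage transcripts, in BAT and in control muscle. In BAT muscle it was 6 without the mouse with Xist, and in control muscle 11 with library totals, 14 with no minimum on counts and 43 with DESeq2. Its member median reversed with library totals, to 0.158 in BAT muscle and 0.0333 in control muscle, with 11 and 6 members then called in the positive direction; the Rpl10 difference at day 7 reversed to -0.0314 with pseudogenes added. Between BAT and control muscle the count stayed at 0 in all settings but 1: with no minimum on counts, 1 member (Rpl3l) was called in satellite cells at day 7. For the BAT effect in satellite cells minus FAPs at day 3, 1 member (Rpl39l, log2 4.14) was called by edgeR without the libraries rich in macrophage transcripts. That call is read no further, since Rpl39l met the minimum on counts at day 3 through FAPs alone. All satellite cell libraries of control muscle at day 3 held 53 counts of it together, and a BAT library left in carried many FAP marker transcripts. The causes were not tested.

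With a block on the replicate number, which does not mark a mouse over the days, 66 members were called in satellite cells of BAT muscle and 76 in those of control muscle, 51 in FAPs of BAT muscle and 40 in FAPs of control muscle. Adding pseudogenes put the shares at 5.87, 5.64, 8.10 and 8.18% in satellite cells (BAT day 7, control day 7, BAT day 3, control day 3) and 3.30, 3.46, 5.41 and 5.59% in FAPs in that order. Leaving the 50 highest other genes out of the totals gave 4.41, 4.19, 6.05 and 6.13%, and 2.81, 2.93, 4.27 and 4.41%. Of 3388 values of single named genes under other settings, 3198 kept direction and call, 119 lost and 70 gained a call, and 1 reversed. Leaving out replicates was not run for differences of differences. With 4 mice a day, small BAT effects and members of a few CPM (Rpl3l, Rpl17, Rps27) are at the limit of what these depths show.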

Other observations

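Mitochondrial ribosomal proteins, which belong to another ribosome and are made from mRNAs of the nucleus, were measured in the same libraries. In control muscle 46 of 78 were higher in satellite cells than in FAPs at day 7 (median log2 0.42) and 74 of 78 at day 3 (1.02), with none lower, where 22.5% of all genes were called higher at day 7 and 35.8% at day 3, Mrps27 with 1.28 at day 7. At day 7 against day 3, 77 of 78 were lower in satellite cells (median -1.22) and 46 of 78 in FAPs (-0.54), where 29.8% of all genes were lower in satellite cells and 11.4% in FAPs, Mrpl40 with -0.88 in FAPs. None was called between BAT and control muscle by edgeR in any of the 4 comparisons.

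Coding length and the fall at day 7 showed no steady order over 4 groups of genes, though shorter genes leaned to the larger fall in satellite cells. The Spearman rho of coding length with the day difference was 0.29 in satellite cells and 0.08 in FAPs of control muscle. In BAT muscle it was 0.25 in satellite cells and 0.20 in FAPs. The values in satellite cells include Rpl3l. Over 4 groups, from the ribosomal protein genes with the shortest coding sequence (138 to 357 bases) to those with the longest (636 to 1257 bases), the median day 7 minus day 3 log2 differences in control muscle were -1.21, -0.98, -1.13 and -0.89 in satellite cells and -0.77, -0.60, -0.71 and -0.63 in FAPs. The genes whose level followed the summed share of the members most closely over the 32 libraries, among protein-coding ones, were Rps18-ps5, Eif3i (both r = 0.99), Ppia (0.99) and Rack1 (0.99). Those closest to Rpl39l were Tmem45a (0.985), Lox (0.98) and Papss2 (0.98). The 32 libraries come from 8 mice and are not independent, so these values carry no test.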
